A study of Homo sapiens with 4 samples.

Results

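NF-κB is a family of dimeric transcription factors, and the transcripts of its 5 subunits and 5 of its inhibitors were examined in HCT116 colon carcinoma cells grown as multicellular spheroids (MCS) or as monolayers. The genes were taken by name: the subunits NFKB1, NFKB2, RELA, RELB and REL, the classical inhibitors NFKBIA, NFKBIB and NFKBIE, the atypical inhibitor NFKBIZ and the ubiquitin-editing enzyme TNFAIP3. Every probe set whose single platform gene symbol was one of these names was included, which gave 22 probe sets of the 54675 on the array for 10 genes of 19775 with such a probe set. HCT116 is an established human colon carcinoma line, and all cultures were untreated. There were 2 independent spheroid cultures and 2 independent monolayer cultures, each hybridized to its own oligonucleotide array. A spheroid is a dense aggregate with proliferating cells at its rim and a poorly supplied core, and RNA came from whole spheroids, so that core and rim were not separated. Values are MAS5 signals in arbitrary units, which can be compared between arrays for the same probe set but not between probe sets. Fewer cells of a type and less RNA per cell cannot be told apart in such bulk RNA.

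NF-κB dimers are held in the cytoplasm by the IκB proteins until the IκB kinase (IKK) complex, activated downstream of cytokine and pattern-recognition receptors, marks the IκB for degradation. The dimers then enter the nucleus and bind κB sites in the promoters of inflammatory, survival and chemokine genes. Several of the genes so induced, among them the IκBα gene NFKBIA and the A20 gene TNFAIP3, encode inhibitors of the pathway and close a negative feedback loop. In the noncanonical branch, the kinase NIK drives processing of the NFKB2 precursor, whose product pairs with RELB. In colon epithelium the pathway is known for its part in the response to microbes and in inflammation-associated cancer.

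All 4 arrays had a mean signal of 500.1 after the lowest and highest 2% of probe sets were left out, and 27.5% to 30.0% of probe sets were above 300 units. Arrays correlated across tested genes at 0.979 for the spheroid pair, 0.984 for the monolayer pair and 0.889 to 0.902 between the culture types, although genes are not independent replicates. Of 8 colon epithelial markers, 5 (EPCAM, KRT8, KRT18, KRT19 and CDH1) had a mean signal above 300, while VIL1, CDX2 and LGALS4 were between 17.0 and 147 on every array. None of 4 blood cell markers and none of 3 endothelial markers had a mean signal above 300. Of 4 fibroblast markers, COL1A1 did, with 2222 and 2659 in spheroids and 869 and 658 in monolayers, whereas COL3A1, PDGFRB and LUM stayed under 75 on every array. The summed signal of the 4 fibroblast markers was 2312 and 2724 in spheroids and 1000.0 and 723 in monolayers. Nearly all of this sum was COL1A1, and LUM was lower in spheroids (5.47 and 5.34) than in monolayers (74.6 and 31.5). The part of these markers in the results was not tested. The ratio of the 3′ to the 5′ control probe set of ACTB, a measure of RNA integrity, was 2.82 and 3.003 in spheroids and 2.64 and 2.34 in monolayers. The same ratio for GAPDH went the other way, with 0.931 and 0.921 in spheroids and 1.07 and 1.02 in monolayers. The part of RNA integrity in the results was likewise not tested.

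The promoters are shown first because many of these genes are known κB targets themselves. RefSeq promoter windows (GRCh38.p14) were matched by symbol for 8 of the 10 genes, RELB and NFKBIE being the others, and 5 of the 8 had several start sites, giving 14 windows of the 250 bases before a start. The deposited values name no genome build, so these positions belong to the promoter table alone. The κB consensus was searched by its degenerate 10-base form on both strands, with overlapping matches allowed, since its near-palindromic sites can match on both strands at once. It was found in 9 of the 14 windows and in 7 of the 8 genes, RELA being the exception, whereas 5.21% of all 35116 windows in the table held it. The looser pattern GGGNNNNNCC, which contains the consensus, was found in 13 of 14 windows and in 54.4% of all windows. A match is a description of these letters and was not tested as a binding site.

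**Figure D1:**
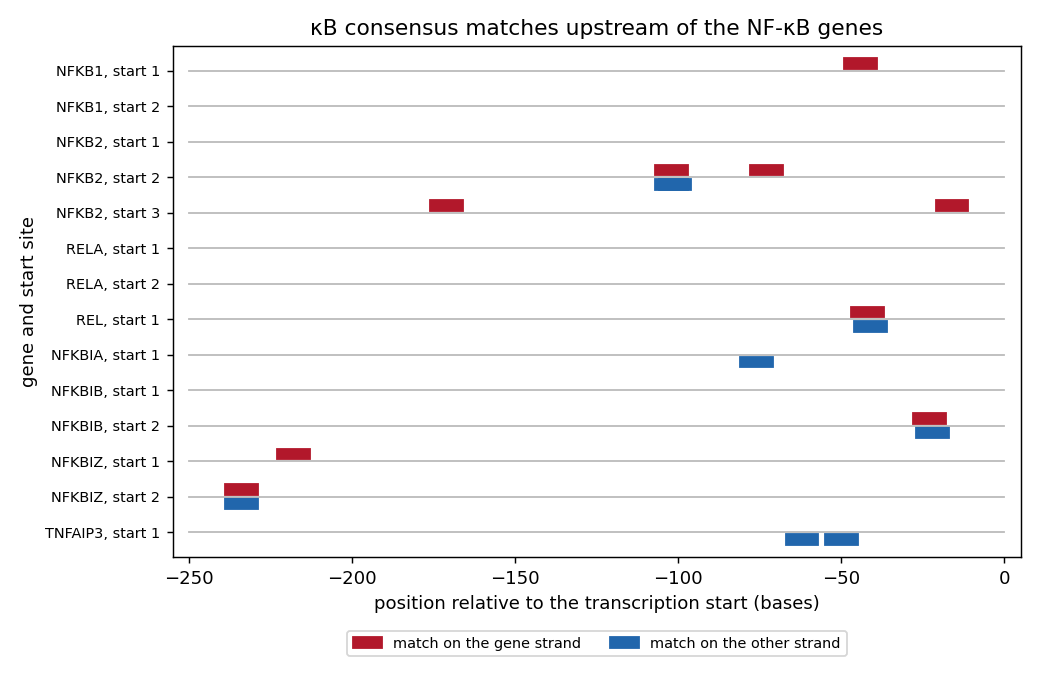
Position of each κB consensus match (boxes, x axis in bases relative to the transcription start) in the 250 bases before each RefSeq start site of the 8 genes with a promoter window (rows). Red boxes are matches on the strand of the gene and blue boxes matches on the other strand, and 9 of the 14 windows hold at least 1 match.

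The stretches around the matches are given 5′ to 3′ on the strand of the gene, with the matched bases in capitals. NFKBIA, with the textbook example of a promoter under NF-κB feedback, is shown for the whole 250 bases, and the others only around their matches. Of the 9 windows with a match, 7 are shown, 1 for each gene, and those of a further start of NFKB2 (matches at 176 to 167 and 21 to 12 bases before it) and of NFKBIZ (239 to 230 bases) are not.
NFKBIA (chr14:35404750-35404999, minus strand): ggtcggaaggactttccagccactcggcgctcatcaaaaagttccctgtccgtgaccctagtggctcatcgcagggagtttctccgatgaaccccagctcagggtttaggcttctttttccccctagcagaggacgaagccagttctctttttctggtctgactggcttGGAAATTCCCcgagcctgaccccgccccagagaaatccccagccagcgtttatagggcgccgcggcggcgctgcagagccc
TNFAIP3 (chr6:137867167-137867238, plus strand): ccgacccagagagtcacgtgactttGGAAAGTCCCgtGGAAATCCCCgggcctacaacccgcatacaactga
NFKBIZ (chr3:101827742-101827801, plus strand): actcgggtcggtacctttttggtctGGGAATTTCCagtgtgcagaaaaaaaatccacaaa
NFKB2 (chr10:102394446-102394534, plus strand): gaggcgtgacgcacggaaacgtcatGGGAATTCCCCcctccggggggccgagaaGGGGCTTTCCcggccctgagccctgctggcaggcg
REL (chr2:60881502-60881562, plus strand): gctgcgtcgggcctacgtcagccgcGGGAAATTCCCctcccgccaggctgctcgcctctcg
NFKB1 (chr4:102501285-102501344, plus strand): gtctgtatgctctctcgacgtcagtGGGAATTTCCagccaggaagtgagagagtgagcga
NFKBIB (chr19:38899916-38899968, plus strand): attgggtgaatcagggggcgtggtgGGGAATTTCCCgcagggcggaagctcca

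The 10-base match shared by most of these genes, GGGAATTTCC, was picked for that reason and its count is a description. It occurred on either strand in the windows of NFKBIA, NFKBIZ, REL, NFKB1 and NFKBIB, that is in 5 of 14 windows, and in 50 of all 35116 windows (0.142%). In NFKBIA it lay on the other strand, 81 to 72 bases before the start. TNFAIP3 held a pair of matches, at 67 to 58 and 55 to 46 bases before its start. The window of NFKBIZ shown had its match far from the start, at 223 to 214 bases. Of the genes with the shared site, NFKBIA, NFKBIZ and REL were higher in spheroids in the comparison that follows, while NFKB1 and NFKBIB were not called.

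Most of the NF-κB genes were higher in spheroids, but not the whole family. Of the 9 genes with a probe set above a mean of 300 units, 6 were called higher and 0 lower (limma, Benjamini-Hochberg adjusted p under 0.05 over 8721 genes): NFKBIZ, NFKB2, NFKBIA, RELA, REL and TNFAIP3. Over all 8721 genes tested, 19.0% were called higher and 20.6% lower, 39.6% in all. The median log2 difference of the 9 genes, spheroid minus monolayer, was 0.87, against -0.03 over all genes. Both spheroid arrays were above both monolayer arrays for 6 of the 9 genes and below them for 2, whereas the shares over all genes were 33.4% above and 36.6% below. RELB did not pass the filter, which lets through a gene that is bright in 1 culture type alone. NFKB2 and TNFAIP3, among the 6 called higher, had monolayer means of 291 and 243 and passed only through their spheroid signals. The count of 6 therefore depends in part on the filter, while the median was 0.87 with it and 0.87 without it. With no filter, 5 of the 10 genes were called higher, and 1336 of 19775 over all genes. With a filter at a mean of 100, 6 of the 10 were called higher, and 1903 of 11297 over all genes. With 2 arrays per group an exact permutation test could not go below p = 0.333 (two-sided), so that the calls rest on limma's pooled estimate of the spread. All differences are on the scale of log2(signal + 32), with standard errors, n = 2 per group.

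**Figure D2:**
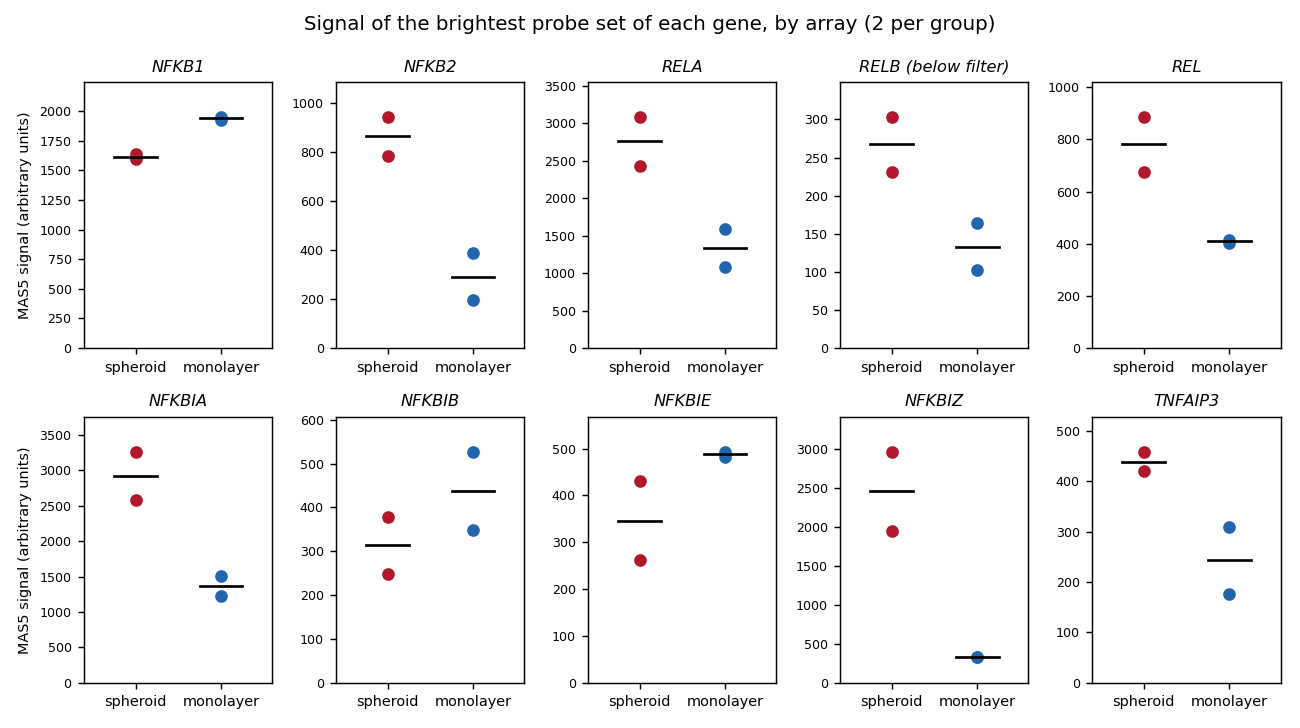
MAS5 signal (y, linear axis from 0, arbitrary units) of the brightest probe set of each gene on the 2 spheroid arrays (red) and the 2 monolayer arrays (blue), with a black bar at each group mean. Spheroid arrays lie above monolayer arrays for NFKB2, RELA, RELB, REL, NFKBIA, NFKBIZ and TNFAIP3, below them for NFKB1 and NFKBIE, and overlap with them for NFKBIB; the signal of RELB was below the filter.

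Among the subunits, RELA encodes p65, which carries the transactivation domain of the canonical dimer. Its brightest probe set (201783_s_at) had signals of 3085 and 2432 in spheroids and 1589 and 1081 in monolayers. Both spheroid arrays were above both monolayer arrays. The log2 difference was 1.05 ± 0.21 (limma, adjusted p = 0.00169). The other RELA probe set (209878_s_at) had 632 and 467 in spheroids and 387 and 424 in monolayers, a smaller difference of 0.40 ± 0.24 that was not called when every probe set was tested (limma over 15911 probe sets, adjusted p = 0.236). The groups did not overlap there either.

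NFKB1 encodes the p105 precursor of p50, the usual partner of p65. Its only probe set had signals of 1595 and 1636 in spheroids and 1950 and 1926 in monolayers. The spheroid arrays were the lower ones and close together within each group, but the difference of -0.26 ± 0.16 was not called (limma, adjusted p = 0.231). Of the 2 genes of the canonical p50-p65 dimer, RELA was therefore called and NFKB1 was not. On a single array the log2 ratio of RELA to NFKB1 depends on the scaling only through the added constant, and this ratio, chosen after the values were seen, was 0.94 and 0.56 in spheroids and -0.29 and -0.82 in monolayers. It was higher by 1.30 in spheroids, with no overlap. With scaling to the spike-in controls, which can act on it only through that constant, it was higher by 1.30. The ratio used RELA probe set 201783_s_at, which differed by 1.05, whereas the other RELA probe set differed by only 0.40. The sign of a single ratio has no meaning across probe sets, and it is the shift between cultures that shows the unequal change.

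NFKB2 encodes p100, which acts as an inhibitor until it is processed to p52 in the noncanonical branch. Its brightest probe set had signals of 944 and 786 in spheroids and 387 and 196 in monolayers. The log2 difference was 1.53 ± 0.29 (limma, adjusted p = 0.00129), and it stayed called with each array left out in turn, at 1.09 to 1.97. A dimmer probe set (209636_at), below the filter, had 354 and 264 in spheroids and 258 and 109 in monolayers, in the same order without overlap. The third (211524_at) did not exceed 61.7 on any array, and its groups overlapped.

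RELB encodes the partner of p52. It had signals of 231 and 303 in spheroids and 164 and 103 in monolayers, so that the spheroid arrays were the higher ones although the mean of 200.2 was below the filter. With a filter at a mean of 100 its log2 difference was 0.87 ± 0.33 and was not called (limma over 11297 genes, adjusted p = 0.0619), nor was it with no filter (limma over 19775 genes, adjusted p = 0.191). MAP3K14, which encodes NIK, had 173 and 214 in spheroids and 197 and 197 in monolayers and was not tested; it was named after its values were seen.

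REL, or c-Rel, best known from lymphocytes, had 5 probe sets, and the spheroid mean was the higher one on each. The brightest had signals of 677 and 886 in spheroids and 416 and 403 in monolayers, which differed by 0.87 ± 0.23 on the log2 scale (limma, adjusted p = 0.00920). A second probe set (235242_at) had 651 and 633 in spheroids and 335 and 371 in monolayers and was called when every probe set was tested (0.81 ± 0.23, limma, adjusted p = 0.0197). The third above the filter (228812_at) had 440.0 and 595 in spheroids and 360 and 336 in monolayers, again without overlap. It was not called (0.52 ± 0.25, limma, adjusted p = 0.135). Below the filter, 239486_at had 125 and 153 in spheroids and 82.2 and 61.2 in monolayers, without overlap. The dimmest (206035_at) had 96.7 and 33.3 in spheroids and 81.9 and 9.62 in monolayers, and its groups overlapped. The call of the brightest was lost without spheroid replicate 2 (0.68, limma, adjusted p = 0.0815).

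**Figure D3:**
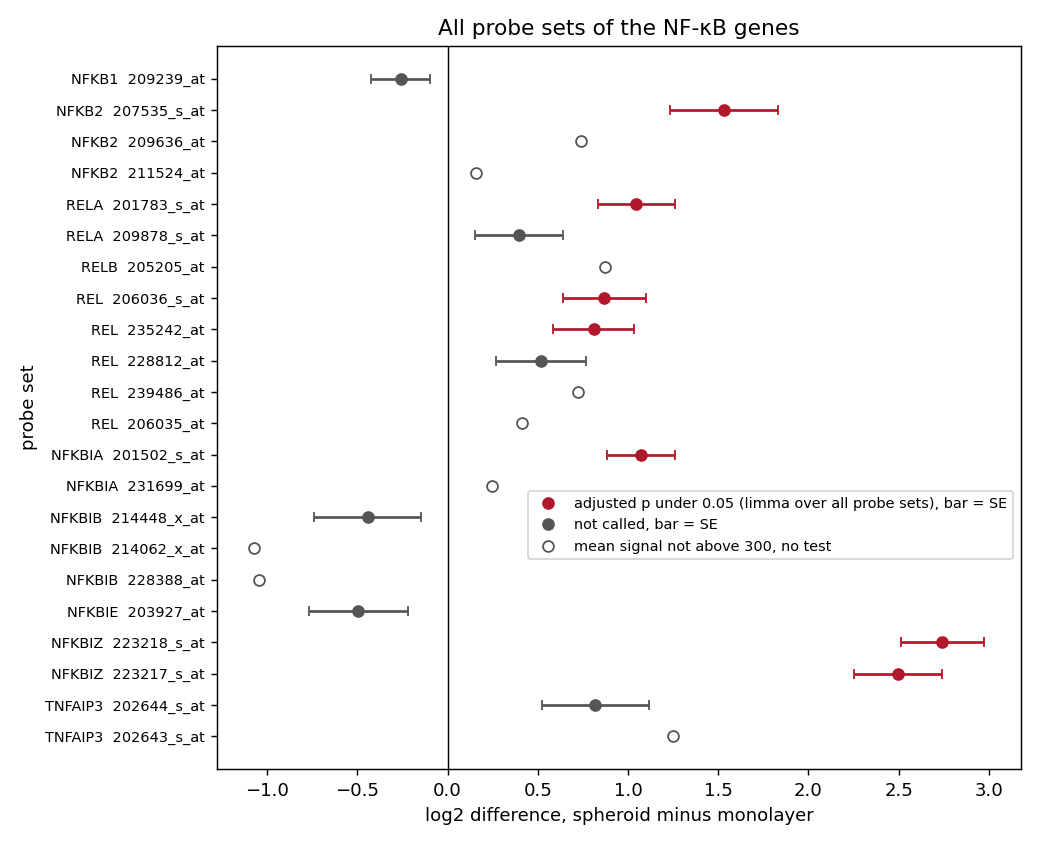
Log2 difference, spheroid minus monolayer (x), of all 22 probe sets of the 10 genes (y), with standard errors for the 13 above the filter; red points had an adjusted p under 0.05 in a limma fit over 15911 probe sets, and open points were below the filter and not tested. Of the 13, 7 were called higher and 0 lower, against 16.8% and 16.6% of all probe sets, and the 7 red points are all to the right of 0, and the points to the left of 0 belong to NFKB1, NFKBIB and NFKBIE.

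Over all 13 probe sets above the filter, both spheroid arrays were above both monolayer arrays for 10 and below them for 2, and the shares over 15911 probe sets were 33.4% and 34.5%. The classical inhibitors differed among themselves. NFKBIA encodes IκBα, the fastest of the feedback inhibitors, and had signals of 3261 and 2579 in spheroids and 1513 and 1226 in monolayers. Its groups were well apart, and the log2 difference was 1.07 ± 0.18 (limma, adjusted p = 6.76e-04). The call held with each array left out in turn, at 0.91 to 1.24. A second NFKBIA probe set (231699_at) did not exceed 64.4 on any array and its groups overlapped, close to the 4.47 to 34.97 of the bacterial control probe sets to which no transcript had been added. With the brightest probe set of each gene, the log2 ratio of NFKBIA to RELA on each array shifted by 0.03 between cultures and its groups overlapped. That of NFKBIA to NFKB1 was higher by 1.33 in spheroids without overlap. The shift of 0.03 depends on the RELA probe set used (201783_s_at, 1.05), since the other one above the filter (209878_s_at) differed by only 0.40.

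NFKBIB encodes IκBβ, which is less subject to feedback induction. Its brightest probe set (214448_x_at) had signals of 379 and 248 in spheroids and 527 and 347 in monolayers. The groups overlapped, and the difference of -0.44 ± 0.29 was not called (limma, adjusted p = 0.249), and with 1 array left out it ranged from -0.72 to -0.16. The other 2 probe sets, both below the filter and not tested, were lower in spheroids without overlap. One (214062_x_at) had 276 and 104 in spheroids and 482 and 329 in monolayers, and the other (228388_at) 82.5 and 68.0 in spheroids and 201 and 177 in monolayers.

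NFKBIE encodes IκBε, another cytoplasmic inhibitor. It had signals of 431 and 261 in spheroids and 493 and 483 in monolayers. Both spheroid arrays were below the monolayer arrays but far apart from each other. The difference of -0.50 ± 0.27 was not called (limma, adjusted p = 0.165), and it was -0.83 without spheroid replicate 1 and -0.17 without spheroid replicate 2. The log2 ratio of NFKBIA to NFKBIB, also chosen after the values were seen, restates the unequal differences of these transcripts. It was 3.003 and 3.22 in spheroids and 1.47 and 1.73 in monolayers, higher by 1.51 in spheroids. With spike-in scaling, which acts on a ratio only through the added constant, it was higher by 1.46. The ratios of NFKBIE and of NFKBIB to NFKB1 shifted by -0.24 and -0.18, and their groups overlapped.

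NFKBIZ showed the largest difference of the 9 tested genes. It encodes IκBζ, a nuclear IκB protein that is induced by inflammatory signals and acts with p50 on a subset of target genes as coactivator or inhibitor. Its brightest probe set (223218_s_at) had signals of 1949 and 2963 in spheroids and 327 and 337 in monolayers. The monolayer arrays were nearly equal, and even the lower spheroid array was far above them. The log2 difference was 2.74 ± 0.22 (limma, adjusted p = 3.14e-06), a 6.69-fold increase on this scale and number 64 in order of increase of the 8721 genes. The other probe set (223217_s_at) had 1065 and 1213 in spheroids and 149.8 and 204 in monolayers, with a difference of 2.50 ± 0.24 (limma over 15911 probe sets, adjusted p = 7.91e-05).

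TNFAIP3 encodes A20, which edits ubiquitin chains on signalling adaptors and so restrains IKK. Its brightest probe set (202644_s_at) had signals of 419.7 and 458 in spheroids and 309 and 176 in monolayers. The groups did not overlap, but the monolayer arrays were far apart. The log2 difference of 0.82 ± 0.29 was the weakest of the 6 calls (limma, adjusted p = 0.0398) and was lost without spheroid replicate 1 (0.88), spheroid replicate 2 (0.76) or monolayer replicate 2 (0.46). It was also lost with no filter (limma, adjusted p = 0.155), with quantile normalization (0.62) and when every probe set was tested (limma, adjusted p = 0.0547). A dimmer probe set (202643_s_at), below the filter, had 192 and 288 in spheroids and 114 and 54.8 in monolayers, again without overlap.

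The scaling of the arrays bears on every one of these values. Bacillus control transcripts were 1.90-fold brighter on the spheroid arrays. They were also uneven within a group, with geometric means of 1871 and 1255 on the spheroid arrays and 746 and 897 on the monolayer arrays. Scaling to them moved the median of all genes to -0.91. It also raised the standard errors of the 9 genes, for NFKBIZ from 0.22 to 0.45. Under that scaling 1 of the 9 genes, NFKBIZ, was called higher, and 3, NFKB1, NFKBIB and NFKBIE, were called lower, and over all genes the shares were 1.80% higher and 41.9% lower. The median of the 9 genes was then 0.02, still above that of all genes. NFKBIZ differed by 1.88 (limma, adjusted p = 5.66e-04), NFKB2 by 0.69, NFKBIA by 0.18, RELA by 0.16, REL by 0.02 and TNFAIP3 by -0.0010. NFKB1, NFKBIB and NFKBIE differed by -1.15, -1.27 and -1.33. Except for NFKBIZ, the 6 calls therefore hold for levels relative to the total signal of the array, and which scaling is the better one was not tested.

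**Figure D4:**
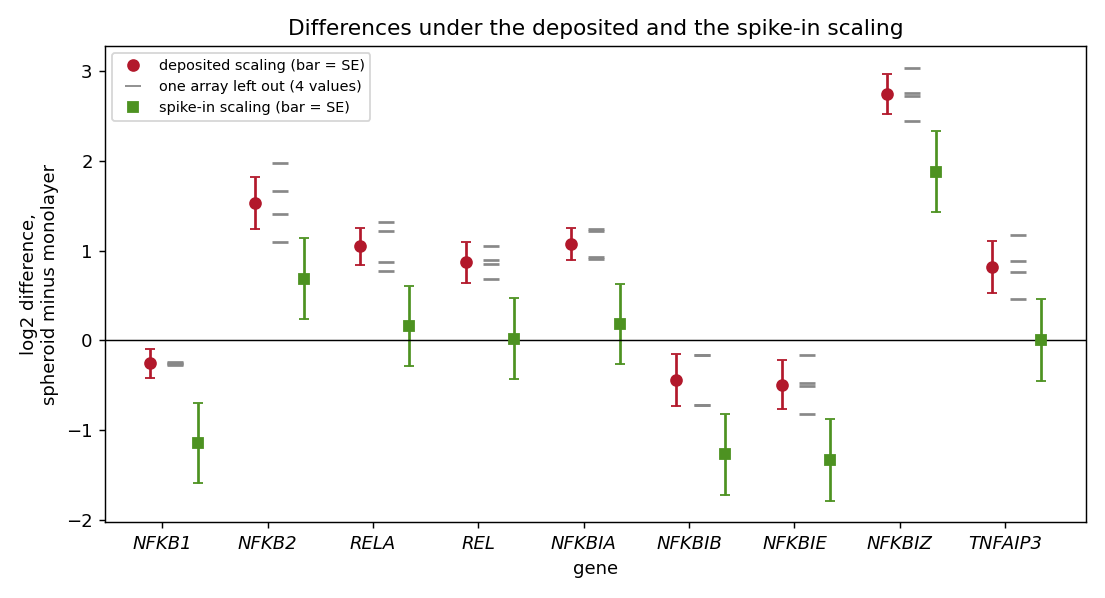
Log2 difference, spheroid minus monolayer (y), of the 9 tested genes (x) with the deposited scaling (red, bars are standard errors), with each of the 4 arrays left out in turn (grey dashes) and with scaling to the Bacillus spike-in controls (green squares, bars are standard errors). Spike-in scaling lowered every gene, to -1.15, -1.27 and -1.33 for NFKB1, NFKBIB and NFKBIE and to 0.02 for REL and -0.0010 for TNFAIP3, and NFKBIZ remained at 1.88.

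The rest of the pathway was described from lists of receptors and ligands, IKK kinases and adaptors, other inhibitors and target genes. Of 24 receptors and ligands, 11 were tested, of which 6 were higher and 1 lower (median 0.70), against 19.0% higher and 20.6% lower over all genes. IL1RAP, the accessory chain of the interleukin-1 receptor, had signals of 576 and 680.1 in spheroids and 32.8 and 25.9 in monolayers (limma, adjusted p = 6.16e-06). The monolayer signals were within the range of the control probe sets with no added transcript, so that only a bound could be given. Set against the highest of those control signals, 34.97 units, IL1RAP was at least 17.9-fold higher in spheroids. TNFRSF11A, the receptor RANK, had 769 and 555 in spheroids and 197 and 163 in monolayers (1.70 ± 0.27, limma, adjusted p = 3.73e-04). Both IL1RAP and TNFRSF11A passed the filter only through their spheroid signals. The cytokine gene IL18 had 5301 and 4457 in spheroids and 1541 and 1546 in monolayers (1.63 ± 0.16, limma, adjusted p = 1.19e-05). With spike-in scaling IL1RAP stayed called, and TNFRSF11A (0.87) and IL18 (0.74) did not. IL18 was above the filter, the only such gene of the 8 listed ligands, and the other 7, TNF, LTA, LTB, IL1A, IL1B, TNFSF10 and TNFSF15, were between 1.51 and 154 on every array. These 7 were named after their values were seen.

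Of the kinases and adaptors, 18 were tested of 26 listed, and 5 were higher and 4 lower, close to the shares of 19.0% and 20.6% over all genes. Their median was -0.03, and that of all genes was -0.03. BCL10, an adaptor of the CARD-BCL10-MALT1 complex, had 4779 and 4843 in spheroids and 2829 and 2857 in monolayers (0.75 ± 0.14, limma, adjusted p = 0.00127), and MYD88, the adaptor of interleukin-1 and Toll-like receptors, 2075 and 2258 in spheroids and 1219.8 and 1373 in monolayers (0.73 ± 0.17). Both turned negative with spike-in scaling, to -0.14 and -0.16, and the mean over the probe sets of BCL10 gave a larger difference of 1.89. TRAF3, which restrains the noncanonical branch by targeting NIK, was lower, with 522 and 804 in spheroids and 1048 and 1136 in monolayers (-0.72 ± 0.23, limma, adjusted p = 0.0241). TRAF3 was no longer called with spheroid replicate 1 left out (-0.43), with monolayer replicate 2 left out (-0.67) or with no filter. Of the IKK complex, named after its values were seen, the catalytic subunit CHUK differed by -0.58 ± 0.16 (limma, adjusted p = 0.0113), and was no longer called with spheroid replicate 1 (-0.47) or monolayer replicate 1 (-0.54) left out. The other catalytic subunit IKBKB (0.56 ± 0.22) and the scaffold IKBKG (-0.62 ± 0.24) were not called, but both were close to the threshold (limma, adjusted p = 0.0625 and 0.0607), and each was called in some of the other fits, including those with the replicate number as a block (limma, adjusted p = 0.0267 for IKBKB and 0.0214 for IKBKG).

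Of the other inhibitors, 11 were tested of 16 listed, and 2 were higher and 0 lower (median 0.11), against 19.0% higher and 20.6% lower over all genes. TNIP1, an A20-binding protein, had 2242 and 1416 in spheroids and 761 and 573 in monolayers (1.39 ± 0.24, limma, adjusted p = 6.81e-04), a call that spike-in scaling ended (0.51). TAX1BP1, which also acts with A20 and as an autophagy receptor, had 7317 and 7999 in spheroids and 5269.9 and 5587 in monolayers (0.49 ± 0.13, limma, adjusted p = 0.0101). With spheroid replicate 2 left out TAX1BP1 was not called (0.43), and spike-in scaling made its difference negative (-0.41).

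The target genes that could be tested were higher or not called. Of 33 listed, 13 were tested, of which 8 were higher and 0 lower (median 0.78), against 19.0% and 20.6% over all genes. The others had no probe set with 1 symbol above the filter. Among them were CXCL1, CXCL2, ICAM1 and BIRC3, named after this was seen. Scaled to the spike-in controls, 2 of the 13 targets were called higher and 0 lower (median -0.09), against 1.80% and 41.9% over all genes. The chemokine gene CXCL8 had 1387 and 1003 in spheroids and 74.8 and 71.5 in monolayers. The log2 difference was 3.53 ± 0.27 (limma, adjusted p = 1.72e-06), and CXCL8 passed the filter only through its spheroid signals. SAT1, an enzyme of polyamine breakdown, had 51318 and 52100.1 in spheroids and 8235 and 8003 in monolayers (2.67 ± 0.11), and GADD45B, a stress-induced inhibitor of apoptosis signalling, 3898 and 1954 in spheroids and 767 and 934 in monolayers (1.67 ± 0.26). These genes also respond to other factors, so their levels do not measure NF-κB activity. The spheroid arrays were far apart for GADD45B, but both were above the monolayer arrays. With spike-in scaling CXCL8 and SAT1 stayed called and GADD45B did not (0.78). The targets BCL2L1 (-0.12), SOD2 (-0.06), RIPK2 (-0.005) and CFLAR (0.003) had differences close to 0 and were not called. They act in survival, antioxidant defence or innate signalling and were named after their values were seen. So was TNFAIP2, the remaining target not called, which was higher in spheroids without overlap (0.64 ± 0.26, limma, adjusted p = 0.0664). The difference of SOD2 was imprecise, with a standard error of 0.37. Its signals were 1046 and 519 in spheroids and 1186 and 500 in monolayers.

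**Figure D5:**
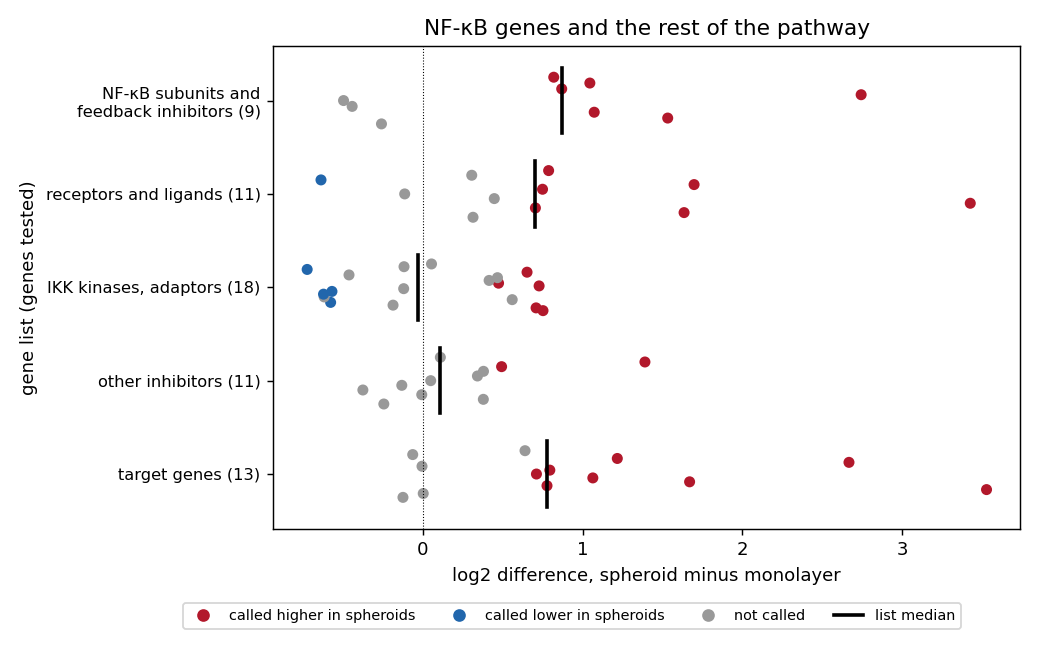
Log2 difference, spheroid minus monolayer (x), of each tested gene of the 5 groups (y, with the number tested). Red points were called higher, blue points lower and grey points neither, and the vertical bar is the group median. Medians were 0.87 for the NF-κB genes, 0.70 for receptors and ligands, -0.03 for kinases and adaptors, 0.11 for other inhibitors and 0.78 for targets, and with spike-in scaling they were 0.02, -0.15, -0.86, -0.77 and -0.09.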

How the data were processed

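Total RNA from 2 spheroid and 2 monolayer cultures of HCT116 cells was labelled as biotinylated cRNA and hybridized to Affymetrix arrays. MAS5 normalization was done by the authors, who deposited a linear intensity (signal) for each probe set, with every array at the same trimmed mean. Its version: not given in the sources used here. Present calls were not used here.

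Of 54675 probe sets, 62 were controls, and 41091 others had 1 symbol in the platform annotation supplied, 1801 several and 11721 none. Updating through RefSeq gene identifiers changed 0 symbols. A filter required a 4-array mean above 300 units, the level used in the study, which left 15911 probe sets. The brightest probe set on average stood for its gene, which gave 8721 genes. log2(signal + 32) was fitted, which understates changes of dim genes, with limma (version 3.58.1, R 4.3.3) by lmFit and eBayes with an intensity trend, two-sided, adjusted by Benjamini-Hochberg over all genes. Residual degrees of freedom were 2, moderated by a prior of 10.5, and the procedure was tested on simulated data. The number of arrays limits the precision.

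The 10 genes and the gene lists were chosen with earlier results of these data known. Of the 99 genes on the 4 pathway lists, 92 had a probe set with 1 symbol. All 10 genes were named with every probe set, and from each list up to 3 called genes with the largest differences. Genes outside this rule are said to have been named after their values were seen. The alternatives varied the filter, the constant, the scaling and the choice of probe set, dropped the trend or 1 array, or blocked on replicate number. A further alternative was Student's t-test, which the study's methods name in general but do not describe for these arrays. For the arrays the study ranked genes by mean ratios.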

Additional observations from a re-analysis of the deposited data

How the results depend on the processing

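For each of the 9 tested NF-κB genes, the direction was kept under every alternative that gave a single difference for that gene. The exception was spike-in scaling, where TNFAIP3 was at -0.0010. Spike-in scaling gave 157 higher and 3656 lower genes, 1 higher and 3 lower NF-κB genes and a median of 0.017, and the signs of BCL10 (-0.14), MYD88 (-0.16), TAX1BP1 (-0.41) and IKBKB (-0.29) turned. Without _x_at and _s_at probe sets 3 of the NF-κB genes could be tested, of which 1, REL, was higher and 0 lower (median -0.26). Over all genes, 1118 of 6094 were then higher and 1114 lower. Testing every probe set gave 2674 higher of 15911. Student's t-test called 1 gene higher and 1 lower after Benjamini-Hochberg adjustment and 0 NF-κB genes. Unadjusted, at the usual threshold, it gave 1218 higher and 1430 lower, with 3 NF-κB genes higher and 1 lower. With 1 array left out, 1208 to 1502 genes were higher and 1362 to 1484 lower, and 4 to 6 NF-κB genes were higher with medians of 0.76 to 1.18; the count of 4 was without spheroid replicate 2, where REL and TNFAIP3 were lost. In those fits the lone array was assumed to vary like the other group. With the replicate number as a block, 2114 genes were higher and 2301 lower, and 6 NF-κB genes were higher and 0 lower; cultures with the same number share only that number, and their deviations correlated at 0.32 across genes. Signal over background limits the dim genes: 9 of the 22 probe sets were below the filter, some near the control probe sets with no added transcript.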
